A study of Mus musculus with 44 samples.

Results

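Neurons and satellite glial cells (SGCs) of the mouse dorsal root ganglion (DRG) were compared after sham surgery, using the 14 sham libraries among the 44 samples of the series. The neuron side held 6 libraries of magnetically isolated neurons, 3 from male and 3 from female C57BL/6 mice aged 9 to 11 weeks. Their RNA came from ipsilateral L3 to L5 ganglia 8 days after a sham operation, after enzymatic dissociation, magnetic isolation with a MACS neuron kit, and RNA isolation with a micro kit. The series' design text calls these cells nociceptors. The SGC side held 8 libraries from C57BL/6 mice of the same age range, 4 taken 3 days and 4 taken 14 days after a sham operation. Their L3 and L4 ganglia were dissociated, fixed in paraformaldehyde, stained with antibodies, sorted by fluorescence, and processed with an RNA kit made for fixed tissue; the labels give no sex for them. Both kinds of library were made from total RNA and deposited in separate tables as FPKM, a fragment count scaled by transcript length and by library size.

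Preparation, fixation, sort, RNA kit, ganglion levels, day and table all differ between neurons and SGCs and cannot be told apart from the cell type, so the values below are contrasts of cell identity and not effects of surgery. The main comparison used only the position of a gene within its own library. FPKM values and sums are given beside it as deposited, with the neuron and SGC tables scaled separately. Fits named as without ranking compare FPKM directly. Each library's genes were ranked, position 1 being the highest FPKM, over the 12170 Ensembl genes present in both tables. The ranks were then expressed on a common "rank-equivalent log2 level", the average log2(FPKM + 1) found at that rank over the 14 libraries. A difference is neurons minus SGCs on that scale, so that 1 unit is a 2-fold change in level; adding 1 to the FPKM understates the differences of low genes. A gene was called at an adjusted p below 0.05 (limma, 11834 genes with at least 1 FPKM in at least 3 libraries). No label says whether the libraries came from separate or pooled animals, so p-values measure only the spread between these samples. In bulk samples, fewer cells of a type and less RNA per cell cannot be told apart.

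Sensory neurons of the DRG carry signals from the body to the spinal cord through long axons that depend on neurofilaments, motor-driven transport and voltage-gated sodium channels. Nociceptors, the pain-sensing class, are small neurons, many of which make the neuropeptide CGRP, while large-diameter neurons sense touch and body position. Each neuronal cell body is wrapped by SGCs, which take up potassium and glutamate, couple through gap junctions, and express lipid carriers such as brain fatty acid binding protein and apolipoprotein E.

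The comparison was anchored on 4 marker genes. Nefl (ENSMUSG00000022055, chr14:68083863-68089095) encodes the neurofilament light chain, Calca (ENSMUSG00000030669, chr7:114631478-114636357) encodes CGRP, Fabp7 (ENSMUSG00000019874, chr10:57784881-57788450) encodes brain fatty acid binding protein, and Apoe (ENSMUSG00000002985, chr7:19696109-19699188) encodes apolipoprotein E (GRCm38, GENCODE M21). The bases just upstream of the start sites of Calca and Fabp7 are shown as the promoters of 1 gene from each end of the comparison, from RefSeq (GRCm38.p6), 5′ to 3′ on the strand of the gene. Capitals mark CCAAT boxes, found as CCAAT or as its reverse complement ATTGG. The Calca window is chr7:114636358-114636607 on the minus strand, and the Fabp7 window is chr10:57784673-57784880 on the plus strand.
Calca: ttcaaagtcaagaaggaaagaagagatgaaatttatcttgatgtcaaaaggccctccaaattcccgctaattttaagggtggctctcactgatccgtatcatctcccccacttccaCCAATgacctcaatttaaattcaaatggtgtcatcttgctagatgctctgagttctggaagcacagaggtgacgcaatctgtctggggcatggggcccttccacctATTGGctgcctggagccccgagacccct
Fabp7: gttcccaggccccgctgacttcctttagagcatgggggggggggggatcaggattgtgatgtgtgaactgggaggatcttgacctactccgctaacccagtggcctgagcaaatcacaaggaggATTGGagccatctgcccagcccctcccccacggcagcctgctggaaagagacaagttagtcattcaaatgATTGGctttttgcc
Each of these windows held 2 CCAAT boxes, with 48.0% GC in Calca and 56.2% in Fabp7. The upstream windows of the other SGC marker, Apoe, which are not shown, held 0 CCAAT boxes. The CCAAT box was about as frequent at both ends of the comparison. It was present in 35.1% of the 11559 upstream windows of genes tested, in 34.0% of those of genes at least 2-fold higher in neurons, and in 34.8% of those of genes at least 2-fold higher in SGCs. The other motifs were searched on both strands as well. The cAMP response element TGACGTCA was in 2.96% of neuron-side and 2.61% of SGC-side windows, the GC box GGGCGG in 55.4% and 60.3%, the TATA box TATAAA in 5.72% and 7.06%, the SOX motif ACAAAG in 12.3% and 12.4%, and the E-box CACGTG in 7.99% and 7.1%. The shares of all tested windows were 2.68%, 57.5%, 6.25%, 11.8% and 8.33% in the same order. A match of letters is a description and not a binding site.

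All 4 markers differed in the direction of their cell type. Nefl reached 1260 FPKM in the lowest neuron library, 1980 at the median and 3090 in the highest, against 12.2, 27.8 and 83.4 FPKM in the SGC libraries. No neuron library overlapped any SGC library, and the median rank was 29 in neurons and 1968 in SGCs (difference 5.89, SE 0.38, adjusted p = 3.7e-09). Calca ranged from 1880 through a median of 2820 to 4770 FPKM in neurons and from 13.5 through 99.5 to 424 FPKM in SGCs. It too did not overlap, at median ranks of 15 and 642 (difference 4.92, SE 0.58, adjusted p = 2.15e-06). Its spread over the SGC libraries was wide, from rank 139 in 3 day SGC library 2 to rank 3358 in 3 day SGC library 4, and on a scale of percentile ranks its call was lost (adjusted p = 0.0513).

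The glial markers stood further apart than the neuronal ones. Fabp7 was listed at 0.203, 1.35 and 2.23 FPKM (lowest, median, highest) in neurons and at 7890, 10300 and 12400 FPKM in SGCs. It held ranks 5 to 7 in every SGC library and a median rank of 10614 in neurons (difference -12.20, SE 0.23, adjusted p = 3.08e-14). Apoe was at 0.425, 0.672 and 4.44 FPKM in neurons and at 4980, 7140 and 7890 FPKM in SGCs, with median ranks of 11183 and 9 (difference -11.49, SE 0.23, adjusted p = 3.08e-14). Both genes were near the floor of the neuron libraries, whereas the SGC libraries held some RNA of both neuronal markers. Over 17 neuron markers the summed level was 8350 to 10700 FPKM in neurons and 215 to 825 FPKM in SGCs.

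**Figure D1:**
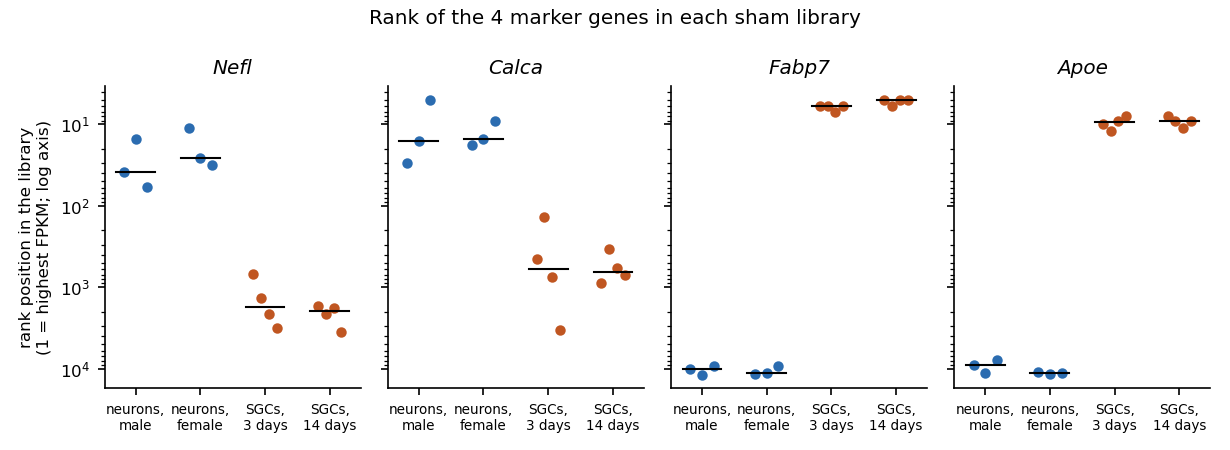
Rank position (log axis, 1 = highest FPKM of 12170 genes) of Nefl, Calca, Fabp7 and Apoe in each sham library, 1 point per library, with a bar at the group median. Nefl and Calca sit at median ranks 29 and 15 in neurons; Fabp7 and Apoe sit at median ranks 6 and 9 in SGCs and near the bottom in neurons.

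Across all genes the cell types differed broadly. Of 11834 genes, 4304 (36.4%) ranked higher in neurons and 4123 (34.8%) ranked lower; with at least 2-fold, 3103 (26.2%) were higher and 2974 (25.1%) lower. All 6 neuron libraries lay above all 8 SGC libraries for 2717 genes (23.0%) and the reverse held for 2710 (22.9%). The near-even split follows from ranking: on log2(FPKM + 1) without ranks, where the median gene lay 0.636 higher in neurons, 6151 genes were higher and 2573 lower. All directions are relative to the middle of each library. Spearman correlations of whole libraries were 0.900 to 0.980 among neurons, 0.868 to 0.955 among SGCs and 0.487 to 0.612 between them.

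Over the shared genes the median FPKM was 7.35 to 9.11 in neurons and 4.97 to 5.6 in SGCs. Of these genes, 211 to 526 were listed at 0 per neuron library and 613 to 1158 per SGC library. All 12170 shared genes are those of the neuron table, which keeps almost only genes with at least 1 FPKM in some neuron group. That filter favours neurons in these values and in the unranked counts above. They therefore do not compare how many genes each cell type expressed. Neuron male library 2 and female library 1 stood apart. They correlated at 0.980 with each other, held 134 and 322 FPKM of the hemoglobin gene Hbb-bs against 1570 to 6540 in the other 4, and 223 and 182 FPKM of the mitochondrial gene mt-Co1 against 1240 to 1600. Without these libraries 222 of 226 named genes kept their direction and call, 2 lost the call and 2 gained it.

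Among named, called genes above 0 FPKM in all 14 libraries, the 20 furthest toward neurons were taken first. Genes at 0 in some SGC library, such as Mrgprd, could differ more. Tppp3, a tubulin polymerization promoting protein, led with 3300 to 3820 FPKM in neurons (median 3610) and 14.8 to 101 FPKM in SGCs (median 50.9). The groups did not overlap (difference 6.27, SE 0.34, adjusted p = 6.53e-10). Next came Trarg1, a trafficking regulator of a glucose transporter (difference 6.23), the actin-binding protein Coro1a (6.16), the synaptic vesicle protein Syngr3 (6.00), the actin regulator Avil, advillin, typical of sensory neurons (6.00), Nefl (5.89), and the laminin receptor Bcam (5.76). Acot7, a brain acyl-CoA thioesterase, and Sult4a1, a brain sulfotransferase, each differed by 5.70. The vesicle protein Syt5 (5.63), the membrane protein Ctxn3 (5.53), the protein kinase A subunit Prkar1b (5.52), the stathmin Stmn3 (5.51) and the endocytic protein Pacsin1 (5.46) followed. Dync1i1, a dynein chain (5.34), Reep2 and Ndrg4 (both 5.26), Calcb, the second CGRP gene (5.26), and Cend1 (5.23) were also among the 20. Syt5 was at 144 to 192 FPKM in neurons and at no more than 2.51 FPKM in any SGC library.

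By the same rule, the 20 genes furthest toward SGCs started with Fabp7 and Apoe. The membrane glycoprotein Gpm6b was at 0.181 to 1.8 FPKM in neurons (median 0.77) and at 342 to 455 FPKM in SGCs (median 446), a difference of -8.44 (SE 0.17, adjusted p = 3.67e-14) with no overlap. The chloride channel Ttyh1 (-7.59), the ADP-ribosyltransferase Art3 (-7.53) and the secreted matrix protein Sparc (-7.28) came next. Dbi, the acyl-CoA binding protein, was the most abundant of the set, at 16000 to 21300 FPKM in SGCs (median rank 4), yet it was also well detected in neurons at 67.8 to 176 FPKM (difference -7.28). The metallothioneins Mt1 (-6.97) and Mt2 (-6.41), which bind zinc and copper, and the glutathione transferase Mgst1 (-6.81) were on this side. So were Cox7a1 (-6.95), a respiratory chain subunit, and the small heat shock protein Cryab (-6.75). The metalloproteinase inhibitor Timp3 (-6.55), the proteoglycan Sdc4 (-6.46) and the intermediate filament Vim (-6.43) also belonged here. Plekha4 (-6.85), Rgcc (-6.80), Pla2g16 (-6.60), Plpp3 (-6.45) and Plekhb1 (-6.40) completed the 20. Both sets of 20 were chosen by these differences, so their sizes describe them and support nothing further.

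**Figure D2:**
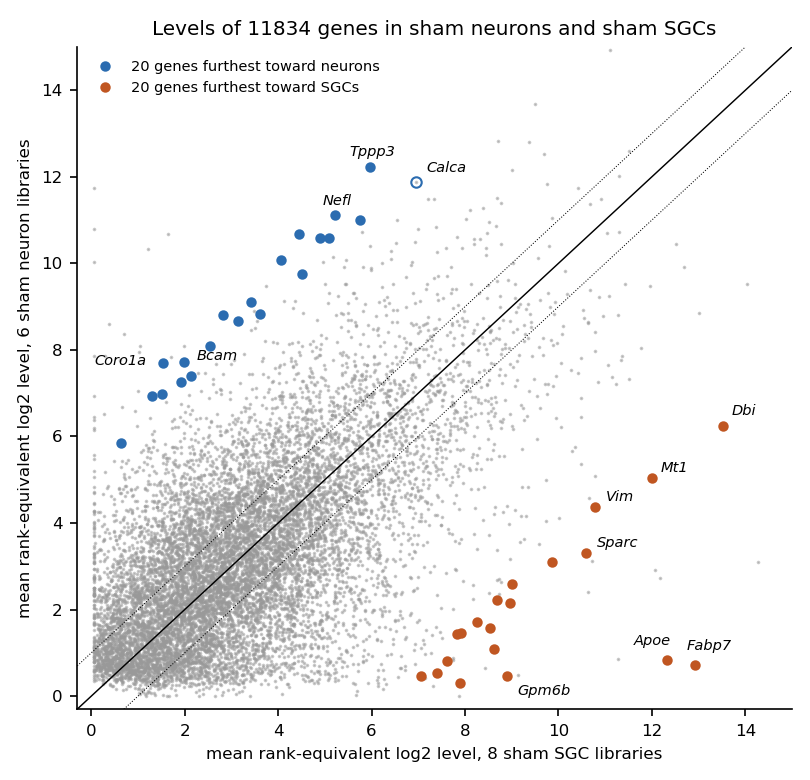
Mean rank-equivalent log2 level of each of 11834 genes in the 8 sham SGC libraries (x) and the 6 sham neuron libraries (y); the solid line marks equality and the dotted lines 2-fold. Blue points are the 20 genes furthest toward neurons among those above 0 FPKM in every library and orange points the 20 furthest toward SGCs; Calca is ringed.

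Among 17 neuron markers tested, 16 were higher in neurons and 1 was lower (median difference 3.19, against 0.039 over all genes tested). Besides Nefl, these included Stmn3, the secretory granule protein Chga (difference 4.75), the ubiquitin hydrolase Uchl1 (4.47), the peripheral filament Prph (4.10) and the filament Nefm (3.88). The exception was Map2, a dendritic microtubule protein, at 2.55 to 11.5 FPKM in neurons (median 6.17) and 8.3 to 16.8 FPKM in SGCs (median 12.3). By rank all 8 SGC libraries lay above all 6 neuron libraries (difference -1.51, SE 0.26, adjusted p = 0.000109). In naive animals, whole ganglia and SGCs did not differ past the threshold for Map2 (0.44, adjusted p = 0.0974).

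Of 30 synaptic vesicle and SNARE genes, 25 were higher in neurons and none was lower (median 2.05). Syngr3 was at 389 to 677 FPKM in neurons (median 511) and at 1.42 to 10.1 FPKM in SGCs (median 6.54), and the vesicle GTPase Rab3a at 391 to 586 FPKM and 2.11 to 19.8 FPKM. Neither overlapped (differences 6.00 and 5.13). The fusion regulators Cplx1 (3.89) and Stx1a (3.86), the calcium sensor Syt4 (3.76), the SNARE protein Snap25 (3.22) and the vesicular glutamate transporter Slc17a6 (2.83) were also higher. The members that did not pass were Sv2a, Sv2b, Syngr1, Slc17a7 and Cadps2, with differences between -0.17 and 0.32; Syngr1 was at 60.8 to 91.7 FPKM in neurons and 24.8 to 53.4 FPKM in SGCs.

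Of 30 genes of axonal transport and the axon cytoskeleton, 25 were higher in neurons and 1 lower (median 2.19). The dynein chain Dync1i1 (5.34), the kinesin Kif5a (4.68), the tubulins Tubb2a (4.63) and Tubb4a (4.50), and the microtubule proteins Map1b (3.53) and Dctn1 (3.50) showed the pattern. Kif5a was at 170 to 374 FPKM in neurons (median 253) and 3.24 to 10 FPKM in SGCs (median 5.66). The kinesin Kif1b went the other way (-1.24, adjusted p = 7.06e-06), at 28.6 to 62.9 FPKM in neurons and 48.5 to 60 FPKM in SGCs, a call that ended without ranking (-0.34, adjusted p = 0.0917). The related Kif1a had a difference of -0.37 (adjusted p = 0.364).

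Of 39 ion channel genes, 28 were higher in neurons and 2 were lower (median 1.72). The kainate receptor subunit Grik1, at 231 to 390 FPKM in neurons and 0 to 7.18 FPKM in SGCs, had a difference of 6.13, and the sodium channel subunit Scn2b, at 212 to 249 FPKM against 0.188 to 5.47 FPKM, of 5.17. The nociceptor sodium channels Scn11a (4.83) and Scn10a (4.70) followed, with the potassium channels Kcnd1 (4.37) and Kcnt1 (3.86), the serotonin receptor Htr3a (4.19), the calcium channel subunit Cacnb3 (3.97) and the acid-sensing channel Asic3 (3.33). The potassium channel Kcna2 was lower in neurons (-1.73, adjusted p = 1.29e-06), at 4.29 to 13.6 FPKM against 12.8 to 19.2 FPKM. The calcium channel Cacna1a was also called lower (-0.98, adjusted p = 0.0129), but not without the neuron libraries that stood apart (-0.52, adjusted p = 0.112). The mechanosensitive channel Piezo2 did not pass (0.59, adjusted p = 0.171).

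Neuronal regulators of RNA and transcription gave 17 of 22 higher and none lower (median 1.55). The splicing factors Rbfox1 (4.15) and Rbfox3 (3.19), the Hu protein Elavl4 (3.47), and the sensory neuron factors Isl1 (3.03) and Pou4f1 (2.61) were among them. Rbfox3 was at 41.3 to 106 FPKM in neurons and 1.47 to 5.71 FPKM in SGCs. Ptbp2, a splicing repressor used early in neurons, did not differ past the threshold (-0.04, adjusted p = 0.828), but was called higher in neurons without ranking (0.71, adjusted p = 0.00161).

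**Figure D3:**
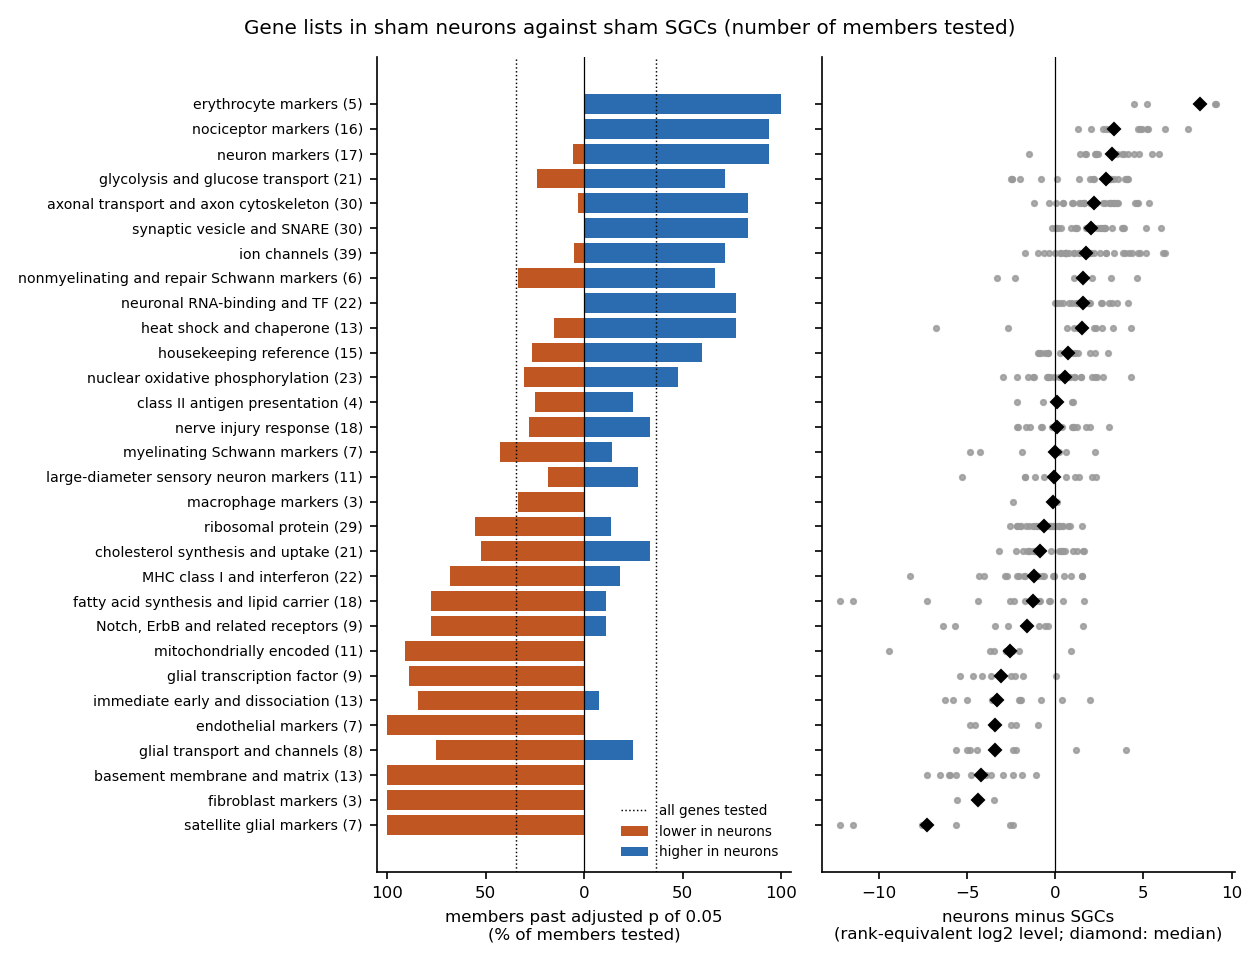
Left, share of each list's tested members called higher (blue) or lower (orange) in neurons at an adjusted p of 0.05, with dotted lines at the shares over all genes tested (36.4% and 34.8%). Right, each member's difference in rank-equivalent log2 level (grey) and the list median (diamond), which runs from -7.28 for satellite glial markers to 8.22 for erythrocyte markers.

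Markers of both main classes of sensory neuron were read against the shares of all genes tested, 36.4% higher and 34.8% lower; the difference between the lists was not tested. Of 16 nociceptor markers, 15 were higher in neurons and none was lower (median 3.33). Mrgprd, a receptor of nonpeptidergic nociceptors, was at 225 FPKM in the lowest, 289 at the median and 418 in the highest neuron library, and at 0 to 0.836 FPKM in SGCs (median 0.00714). No library overlapped (difference 7.55, SE 0.23, adjusted p = 1.36e-12). The ATP-gated channel P2rx3 was at 103 to 156 FPKM in neurons and at a median of 0 in SGCs, the highest SGC library being at 1.75 FPKM (difference 6.24). Calcb was at 719 to 1140 FPKM against 8.15 to 26.8 FPKM (5.26). Calca, Scn11a and Scn10a have been given; Trpa1 (3.33), Ret (3.32), Tac1 (3.20), Trpv1 (2.90), Gfra2 (2.69) and Scn9a (2.02) were also higher. The transcription factor Prdm12, at 13.6 to 39.9 FPKM in neurons and 0.329 to 19.9 FPKM in SGCs, overlapped and missed the threshold (1.30, adjusted p = 0.0506).

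Of 11 large-diameter markers, 3 were higher in neurons and 2 lower, with a median difference of -0.07, so neither share lay above that of all genes. The heavy neurofilament Nefh (2.29, adjusted p = 0.000847), the axonal adhesion protein Cntnap2 (2.07, adjusted p = 4.29e-07) and the acid-sensing channel Asic1 (1.36, adjusted p = 0.000232) were higher. By rank Nefh overlapped between groups, though its FPKM did not, at 33.3 to 186 FPKM in neurons and 1.93 to 24.6 FPKM in SGCs. The BDNF receptor Ntrk2 was at 0.324 to 6.6 FPKM in neurons (median 3.65) and at 90.8 to 114 FPKM in SGCs, with every SGC library above every neuron library (difference -5.27, SE 0.29, adjusted p = 5.87e-10). Parvalbumin, Pvalb, at 0 to 6.51 FPKM in neurons and 0.788 to 16.1 FPKM in SGCs, did not pass (-1.15, adjusted p = 0.0673), nor did the NT-3 receptor Ntrk3 (1.09, adjusted p = 0.0705), Spp1 (-1.73, adjusted p = 0.0802) or Kcna1 (-0.64, adjusted p = 0.103). The list median was 0.65 without ranking, beside 0.64 for all genes, with 6 members higher and 2 lower. Percentile ranks gave 3 higher and 3 lower, and leaving out the neuron libraries that stood apart gave 3 and 4. In the opposite-side neurons against naive SGCs, given below, 4 of 11 were higher and 5 lower (median -0.46). The shares of all genes there were 30.2% and 30.7%.

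The same genes were read in naive mice aged 9 weeks, within the table where whole DRGs and sorted SGCs were both dissociated and fixed (4 libraries each, log2(FPKM + 1)). Of 12907 genes tested there, 3605 (27.9%) were higher in DRGs and 2184 (16.9%) lower. All 13 nociceptor markers tested and 11 of 12 large-diameter markers tested were higher in whole DRGs than in SGCs, with medians of 2.55 and 2.61. The nociceptor markers Mrgprd, P2rx3 and Trpa1 were not tested there, because they did not reach 1 FPKM in 4 naive libraries. Nefh led (6.43, adjusted p = 1.4e-05), and Kcna2, which was lower in isolated neurons, was higher in whole DRGs (0.63, adjusted p = 0.0059). The large-diameter exception was again Ntrk2 (-0.95, adjusted p = 0.000286).

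**Figure D4:**
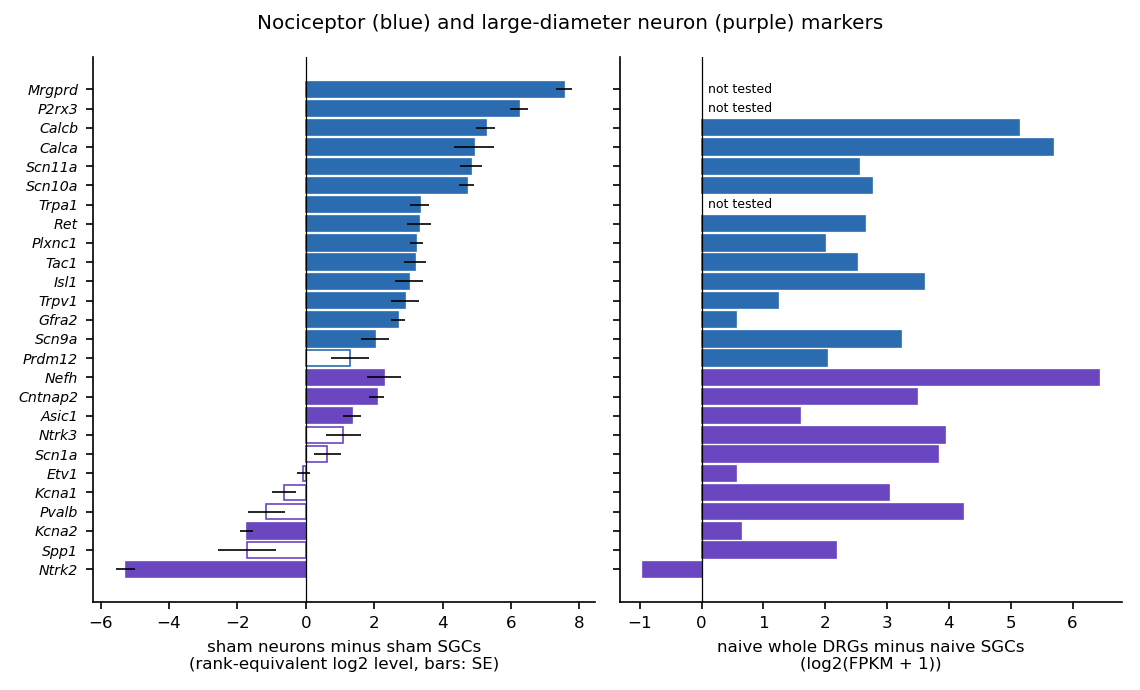
Differences for the nociceptor markers shown (blue) and large-diameter markers (purple): left, sham neurons minus sham SGCs with SE bars; right, naive whole DRGs minus naive SGCs. Filled bars passed an adjusted p of 0.05; on the left every nociceptor bar but Prdm12 lies above 2, whereas large-diameter bars run from 2.29 for Nefh to -5.27 for Ntrk2.

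On the glial side, 7 of the 18 satellite glial markers were in the neuron table, and all 7 were lower in neurons (median -7.28). Besides Fabp7, Apoe, Ttyh1 and Dbi, they were the matricellular protein Sparcl1 (-5.63), the calcium-binding protein S100b (-2.56) and glutamine synthetase, Glul (-2.39). S100b was at 53.4 to 270 FPKM in neurons (median 106) and 314 to 417 FPKM in SGCs (median 390), and Glul at 37.3 to 68.9 FPKM against 99.2 to 167 FPKM. The groups did not overlap for either, though both genes were well detected in neurons.

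The other 11 markers have no line in the neuron FPKM table, which keeps almost only genes with a group mean of at least 1 FPKM in some neuron group (12122 of its 12181 lines). Of protein-coding genes, 1389 of the 10981 with an SGC mean of at least 1 FPKM (12.6%) and 36 of the 624 with at least 100 FPKM (5.8%) were not in it, nor were 44.1% of genes of all biotypes with at least 100 FPKM, and these 11 markers could not be compared by rank. The authors' deposited tables of their own surgery comparisons list mean counts for them, each table on its own scale. For the endothelin receptor Ednrb the authors' deposited table for 3 day SGCs gave a mean count of 42800 (position 24) and that for neurons 22 (position 13363). The authors' deposited tables gave the glial factor Sox10 8900 and 10.4, and the gap junction protein Gja1 6720 and 55.1. For the potassium channel Kcnj10 the authors' deposited tables gave 7700 and 0.2. In FPKM, the FXYD-family transport regulator Fxyd1 averaged 2080 ± 214 (SD, n = 8) and Kcnj10 63.9 ± 6.95 in the SGC libraries.

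Of 22 listed glial transcription factors, 9 were in the neuron table, which lacked Sox10, Sox2, Hes1 and Hey2 among others. Of the 9, 8 were lower in neurons and none was higher (median -3.09). Nfia (-5.44), Zeb2 (-4.69), Nfib (-4.19) and Id4 (-3.67) differed most, and Nfia was at 2.98 to 8.78 FPKM in neurons (median 3.32) and 101 to 197 FPKM in SGCs (median 152). Of 19 listed genes of ion, glutamate, gap junction and water handling, 8 were in the neuron table, which lacked Kcnj10, Gja1, Slc1a3 and Aqp4 among others. Of the 8, 6 were lower in neurons and 2 higher (median -3.42). The chloride channel Clic4 (-5.65), the bicarbonate transporter Slc4a4 (-5.02), the glutamine transporter Slc1a5 (-4.83) and the chloride importer Slc12a2 (-4.46) were lower. The water channel Aqp1 was at 51 to 87.3 FPKM in neurons and 0.185 to 2.74 FPKM in SGCs (4.03, adjusted p = 2.46e-09), and the pannexin Panx1 was also higher in neurons (1.15).

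Of 23 listed basement membrane and matrix genes, 13 were in the neuron table, and all 13 were lower in neurons (median -4.21). Sparc was at 2.15 to 36.1 FPKM in neurons (median 15.7) and 1300 to 1800 FPKM in SGCs (median 1660), and the laminin chains Lama4 (-6.02) and Lamc1 (-5.98) and the laminin receptor Dag1 (-4.76) went with it. Of 25 listed genes of glial receptors and their signals, 9 were in the neuron table, and these included no Notch, ErbB or endothelin receptor. Of the 9, 7 were lower in neurons and 1 higher (median -1.62); the lower ones included the BMP receptor Bmpr1a (-2.66) and the growth factor receptors Fgfr1 (-3.43) and Tgfbr1 (-1.62). The lysophosphatidic acid receptor Lpar1, at 2.95 to 10.2 FPKM against 259 to 437 FPKM, had the largest difference (-6.36), followed by the R-spondin receptor Lgr4 (-5.72). The GDNF receptor Gfra1 was higher in neurons (1.56).

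Lipid genes were divided. Of 18 fatty acid and lipid carrier genes, 14 were lower in neurons and 2 higher (median -1.27); beyond the carriers already given, the desaturase Fads1 (-2.32), the cholesterol exporter Abca1 (-2.56) and Elovl5 (-1.73) were lower, while fatty acid synthase, Fasn, was at 19.8 to 84.2 FPKM in neurons and 2.63 to 9.58 FPKM in SGCs and was higher (1.60, adjusted p = 0.000382). Of 21 cholesterol genes, 11 were lower and 7 higher (median -0.86). The feedback regulator Insig1 (-3.22), the synthesis enzyme Lss (-2.25) and Tm7sf2 (-1.86) were lower in neurons. Squalene synthase, Fdft1, was higher (1.55). Without ranking the cholesterol split became 10 higher and 8 lower, with a median of -0.16.

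Antigen presentation and interferon genes were lower in neurons in 15 of 22 and higher in 4 (median -1.22). The interferon-induced membrane protein Ifitm3 was at 0 to 33.3 FPKM in neurons (median 7.23) and at 1340 to 2040 FPKM in SGCs (median 1710). It did not overlap (difference -8.23, SE 0.59, adjusted p = 1.12e-08). Beta-2 microglobulin, B2m (-4.03), and Isg15 (-4.36) were also lower. H2-D1 was higher in neurons (1.52) and H2-K1 lower (-1.79), but these class I genes are near-identical and their reads may have been split between them.

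Glycolysis lay on the neuron side: 15 of 21 genes were higher in neurons and 5 lower (median 2.89). Aldolase A, Aldoa, was at 4360 to 6380 FPKM in neurons (median 4740, median rank 5) and 280 to 410 FPKM in SGCs (median 382), a difference of 4.12 (SE 0.16, adjusted p = 2.36e-11). The phosphofructokinases Pfkp (4.09) and Pfkl (4.04), pyruvate kinase, Pkm (3.93), lactate dehydrogenase A, Ldha (3.08), and Gapdh (3.00) were higher too. The lactate transporter Slc16a1 (-2.51) and lactate dehydrogenase B, Ldhb (-2.47), were lower, Ldhb lying at 73.9 to 225 FPKM in neurons and 439 to 714 FPKM in SGCs. Of 23 nuclear genes of oxidative phosphorylation, 11 were higher and 7 lower (median 0.53), beside 36.4% and 34.8% of all genes tested; without ranking 14 were higher and 5 lower (median 1.35, beside 0.64 for all genes). Of 29 ribosomal protein genes, 4 were higher and 16 lower (median -0.65), but 12 higher and 10 lower without ranking; processed copies of these genes make single values uncertain.

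Mitochondrially encoded genes were lower in neurons in 10 of 11 (median -2.55). Their summed level was 1020 to 12300 FPKM in neurons and 32600 to 38000 FPKM in SGCs. These sums did not overlap, but they come from separately scaled tables, and the neuron libraries themselves were widely spread. mt-Nd2, a complex I subunit, was at 67.4 to 1040 FPKM in neurons and 3540 to 4490 FPKM in SGCs (-3.73). Without the neuron libraries that stood apart, 10 were lower and 1 higher (median -1.82), the latter being mt-Nd3 (2.31, adjusted p = 1.47e-07). In naive animals, 1 of 11 differed between whole DRGs and SGCs past the threshold (median -0.05). mt-Nd6 had the largest difference (-9.45), but it lies opposite a neighbouring gene and whether counting used the strand is not given in the sources used here.

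Immediate early genes respond within minutes to stimulation and to the handling of tissue. Of 18 listed, 13 were in the neuron table, and of the 13, 11 were lower in neurons and 1 higher (median -3.32). Egr1 was at 0.731 to 2.53 FPKM in neurons (median 1.49) and 80.9 to 194 FPKM in SGCs (median 116), with a difference of -6.27, and Fos was at 6.08 to 20.4 FPKM against 296 to 729 FPKM (-5.80). Neither overlapped. Ier3 was higher in neurons (1.99). Of 15 listed chaperone genes, 13 were in the neuron table, and of the 13, 10 were higher in neurons and 2 lower (median 1.5). Hspa8 reached 2060 to 3140 FPKM in neurons against 75.9 to 191 FPKM in SGCs (4.29), and Cryab was on the SGC side (-6.75). The chaperones not in the neuron table, Hspa1a and Hspa1b, averaged 32.3 and 43.2 FPKM in SGCs. Their mean counts in the authors' deposited tables were 2060 and 2920 for 3 day SGCs and 24.5 and 31.1 for neurons. The part of tissue handling and fixation in these differences was not tested. Nerve injury response genes gave 6 of 18 higher and 5 lower (median 0.09), near the shares of all genes (36.4% and 34.8%), and 9 higher and 2 lower without ranking (median 0.82, beside 0.64 for all genes). Stmn4 (3.06) and Bdnf (1.99) were higher and Csf1 (-2.16) and Socs3 (-2.12) lower, while Atf3, a marker of damaged neurons, did not pass (0.36, adjusted p = 0.5).

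Markers of other cell types were unevenly spread. Erythrocyte genes were higher in neurons in 5 of 5 (median 8.22), with a summed level of 354 to 15300 FPKM in neurons and 0.143 to 90.3 FPKM in SGCs. Hbb-bs ranged from 134 to 6540 FPKM in neurons, and 4 of the 5 genes did not overlap between groups; their near-identical copies share reads. Without the neuron libraries that stood apart, all 5 were again higher (median 9.93). Of 11 listed endothelial genes, 7 were in the neuron table, and all 7 were lower in neurons (median -3.40). Their sum was 38.5 to 71.7 FPKM against 143 to 318 FPKM, and Flt1 (-4.86) and Vwf (-4.54) were among them. Of 9 listed fibroblast genes, 3 were in the neuron table, and all 3 were lower in neurons (median -4.41). The sum of these 3 was 27.8 to 48.8 FPKM against 216 to 1090 FPKM. The part of endothelial and fibroblast RNA in the SGC-side differences was not tested.

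Of 13 macrophage markers, 3 were in the neuron table and 1, Lyz2, was lower in neurons (-2.42); their sum was 1.21 to 4.39 FPKM in neurons and 2.23 to 15.5 FPKM in SGCs, and the other 10 averaged 0.0224 (Csf1r) to 2.9 FPKM (Tyrobp, up to 8.99 FPKM) in SGCs. Of 7 myelinating Schwann markers tested, 3 were lower in neurons, among them Mal (-4.26) and Mbp (-1.89), and Pmp22 was higher (2.26). Mal was at 4.38 to 12.2 FPKM in neurons (median 7.52) and 66.5 to 124 FPKM in SGCs (median 108), well under the 7890 FPKM or more of Fabp7. Of 9 listed nonmyelinating Schwann markers, 6 were tested. Of the 6, 4 were higher in neurons, among them the neurotrophin receptor Ngfr (4.62) and Gfra3 (3.18), which sensory neurons also express. Jun (-3.32) and Ncam1 (-2.28) were lower. Of 2 lymphocyte and neutrophil markers tested, limma called 0. In 14 day SGC library 3 the neutrophil genes S100a8, S100a9, Ngp and Camp reached 79.3, 60.9, 14.4 and 12.5 FPKM, whereas no other sham SGC library exceeded 8.33 FPKM for S100a8 or 0.114 FPKM for the other 3. Without that library 8283 genes differed between neurons and SGCs, beside 8427 with it. Of 8 listed mural markers, 2 were tested and 1 was higher in neurons. Of 7 listed class II genes, 4 were tested, and Cd74 was lower (-2.15) and H2-Eb1 higher (1.01). Of 15 housekeeping genes, 9 were higher and 4 lower in neurons (median 0.69).

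Pairs of related genes were compared by subtracting the members' rank-equivalent levels within each library. Of 39 pairs, 34 had both members tested. The first member of each pair was the one placed on the neuron side. Members were chosen with earlier results of these data known, so the counts of directions describe these pairs and support nothing further. In 28 the first member was relatively higher in neurons, in 3 the difference ran the other way, and in 3 it did not pass. The test was an exact two-sided permutation, with Benjamini-Hochberg adjustment over the 34 pairs. The smallest exact permutation p that the libraries allow is 0.000333. On percentile ranks the counts for the 2 directions were 25 and 3. In 8 pairs the order of the members was swapped between every neuron library and every SGC library. Fabp3, the fatty acid binding protein of muscle and neurons, minus Fabp7 ranged from 3.35 to 5.87 in neurons and from -13.08 to -8.12 in SGCs. The means were 4.71 ± 1.02 (SD, n = 6) and -12.27 ± 1.68 (SD, n = 8), an exact permutation p of 0.000333 and an adjusted p of 0.000472. Nefl against Vim, the intermediate filaments, changed from 6.75 ± 0.40 in neurons to -5.57 ± 0.84 in SGCs, and Ndrg4 against Ndrg2 from 6.23 ± 0.28 to -2.51 ± 0.74.

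The same swap held for Ldha and Ldhb (2.79 ± 0.60 and -2.75 ± 0.28), the vesicle proteins Vamp1 and Vamp3 (2.80 ± 0.97 and -2.09 ± 0.60), and the kinesins Kif5a and Kif5b (1.72 ± 0.83 and -2.94 ± 0.37). It also held for the G protein subunits Gnao1 and Gnai2 (2.36 ± 0.26 and -2.20 ± 0.93) and the kinase subunits Prkar1b and Prkar1a (0.39 ± 0.11 and -3.54 ± 0.72). Aldoa exceeded Aldoc by 6.48 ± 0.38 in neurons and was level with it in SGCs (-0.10 ± 0.25). The pairs that ran the other way were Napb and Napa (change -0.88, adjusted p = 0.00445, exact permutation test), Kcna2 and Kcna6 (-0.99, 0.00453) and Ank3 and Ank1 (-1.17, 0.00694). Among the pairs that did not pass were the enolases Eno2 and Eno1 (0.40, adjusted p = 0.386, exact permutation test) and the dynamins Dnm1 and Dnm2 (0.39, 0.424); all 4 of these genes were themselves higher in neurons.

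**Figure D5:**
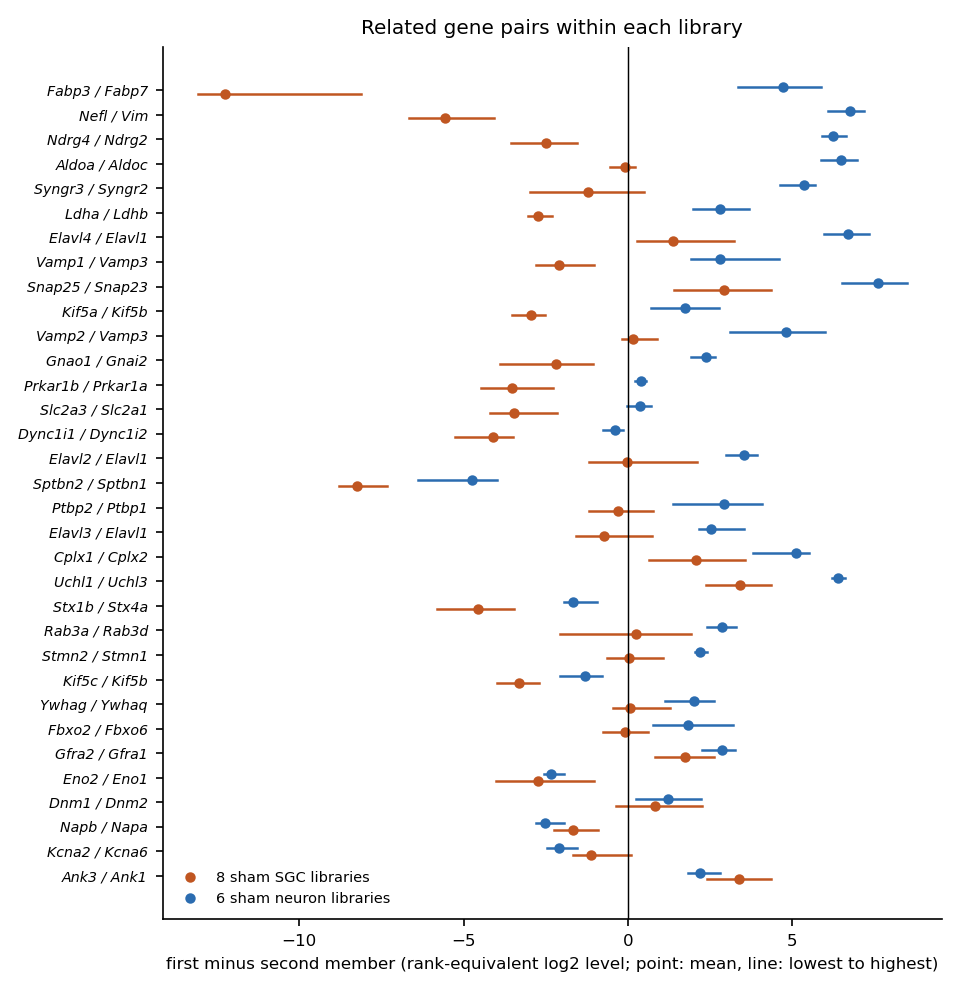
Level of the first gene minus that of the second within each library (rank-equivalent log2 level) for the pairs shown, with the mean (point) and the lowest to highest library (line) in 6 neuron (blue) and 8 SGC (orange) libraries. Zero marks equal levels; Fabp3/Fabp7 moves from 4.71 in neurons to -12.27 in SGCs, and the bottom rows hold the pairs that ran the other way.

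The contrast was repeated in 8 libraries that the sham comparison does not use: 4 neuron libraries from the side opposite a partial sciatic nerve ligation (8 days) and 4 naive SGC libraries. Of 10872 genes tested, 3281 (30.2%) were higher and 3337 (30.7%) lower in neurons. With at least 2-fold, 26.2% were higher and 26.7% lower. Of the 3103 genes at least 2-fold higher in sham neurons, 2919 were tested there, and 2598 (89.0%) were called higher and 0 lower by limma. Of the 2974 lower genes, 2931 were tested, and 2608 (89.0%) were called lower and 0 higher. The marker differences were 5.84 for Nefl, 7.34 for Calca, -11.57 for Fabp7 and -10.17 for Apoe. These libraries share the preparations and so the same limits, and the naive SGC libraries are those of the comparison with whole ganglia.

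In the naive DRGs, of the 2648 neuron-side genes tested 1784 (67.4%) were higher than in SGCs and 15 lower. Of 2963 SGC-side genes, 1154 (38.9%) were higher in SGCs and 163 (5.5%) higher in DRGs. Whole DRGs hold both cell types, and the differences were smaller for the glial genes: -1.80 for Fabp7 and -1.14 for Apoe, against 4.98 for Nefl and 5.69 for Calca. Chga, Kif5a and Aldoa were higher in DRGs by 2.48, 3.44 and 1.85; Egr1 and S100b gave -0.93 and 1.24, so that S100b, lower in isolated neurons than in SGCs, was higher in whole DRGs.

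The order by mean counts pointed the same way. In the authors' deposited tables, 20 of the 20 leading neuron genes stood higher by mean count in the neuron table and 20 of the 20 leading SGC genes higher in the SGC table. Over all genes at least 2-fold apart, the mean-count positions in the authors' deposited tables had the same direction for 3036 of 3103 (97.8%) and 2908 of 2974 (97.8%). These means come from the same surgery experiments and are not independent of the FPKM values. Some FPKM zeros do not match them. Of the genes above 0 in all 6 neuron libraries, 74 were listed at 0 in all 8 SGC libraries, among them Malat1 (439 to 9160 FPKM in neurons), mt-Rnr2, Fkbp8 and Dap3. For Malat1 the authors' deposited table for 3 day SGCs nevertheless gave a mean count of 1570000, and for Fkbp8 648. Glmp and Txnl4a were listed at 0 in all 6 neuron libraries, with mean counts of 2490 and 794 in the authors' deposited table for neurons.

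Within a cell type the libraries differed little by day or sex. Between 14 and 3 day sham SGCs limma called 1 gene higher (0.00845% of 11834) and 0 lower, with 605 (5.11%) at an unadjusted p below 0.05. The median absolute difference was 0.199, against 1.052 between neurons and SGCs. Between female and male sham neurons, 0 genes were called higher and 2 lower (0.0169%), with 271 (2.29%) at an unadjusted p below 0.05. These 2 were the Y-linked genes Ddx3y and Eif2s3y, and the median absolute difference was 0.174. Single libraries moved these counts: 5 genes differed by day without 3 day SGC library 3, and 14 by sex without neuron male library 2. The Y-linked genes were present in the SGC libraries, at 16.7 to 26.4 FPKM for Ddx3y and 37.4 to 97.4 FPKM for Eif2s3y.

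Transcript length moved with the contrast. The median difference was -0.22 for the 939 genes whose longest annotated transcript is under 1000 bases, 0.31 for those of 1000 to 2000, 0.22 for 2000 to 4000, -0.17 for 4000 to 8000 and -0.54 for the 638 longer ones. The part of length in the gene differences was not tested beyond values centred within length deciles.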

How the data were processed

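The authors deposited gene-level FPKM values in separate tables for neurons, SGCs after surgery and naive samples, and comparison tables holding, per the file headers, a mean signal per gene (counts divided by size factors). Per the submitters' processing notes, STAR, SAMtools, Cufflinks and DESeq2 were used with mm10; no versions are given in the sources used here. The neuron and SGC depth is unknown because FPKM values keep no read totals; the number of samples limits the precision.

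Lines sharing an identifier were summed. Ranks over the 12170 shared identifiers were mapped to rank-equivalent log2 levels by quantile normalization of log2(FPKM + 1), pseudocount 1, and fitted with limma 3.58.1 in R 4.3.3 over 4 groups (male and female neurons, 3 and 14 day SGCs), with an intensity trend and Benjamini-Hochberg adjustment. Genes needed 1 FPKM in 3 libraries. The naive and repeat fits required it in 4 libraries, and the naive fit used log2(FPKM + 1) as deposited. Pairs were tested by exact two-sided permutation of libraries.

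Named genes were the 4 markers; the 20 largest differences per direction among called, symbol-bearing genes above 0 in every library and without overlap, leaving out ribosomal and mitochondrial genes; up to 4 called members per list by size and 2 against its direction or smallest; the pairs; and genes listed at 0. Further list members named with values were chosen after their values were seen. The members and lists were chosen with earlier results of these data known. Data with 11834 genes were simulated for the comparison of neurons with SGCs. Of 100 changes of 1 log2 unit 62% were recovered, and of 100 changes of 3 units 99%, while 13 unchanged genes were called. The changes were put only into genes with a mean log2(FPKM + 1) above 3, equally up and down. In the data 8427 of 11834 genes were called, so these rates need not hold there or for low genes. Alternatives covered the scale, pseudocount, filter, gene set, transcript length and left-out libraries. Other samples of the series were not used here, and some genes counted in the lists and pairs are not reported here.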

Additional observations from a re-analysis of the deposited data

Results flagged for a closer look

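Libraries far from the rest of their group were sought on the rank scale for single genes in 82 sets of libraries, and 3 had such a gap; chance gives about 1 in 20. Ttyh1 was at 1.7 FPKM in neuron male library 1, with the other 5 neuron libraries between 0.211 and 0.549 FPKM. Plekha4 was at 4.05 FPKM in neuron male library 3, against 0.0204 to 1.21 FPKM in the others. Dbi was at 16000 FPKM in 3 day SGC library 1, not far below the 17200 to 21300 FPKM of the other 7 sham SGC libraries. Its gap was the whole range on the rank scale (gap over range 1.0), because the other 7 held the same level. Any step in position would have been flagged there. All of these values lay far from those of the other cell type.

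A difference between groups of one cell type passed the test for 3 genes. ENSMUSG00000106857, for which no symbol was used here, was higher at 14 than at 3 days in sham SGCs by 3.92 on the rank-equivalent log2 scale (limma, adjusted p = 6.9e-05), at 8.24 to 14.6 FPKM in 4 of 4 libraries at 14 days and listed at 0 in 4 of 4 at 3 days. The Y-linked genes Ddx3y and Eif2s3y were lower in female than in male sham neurons, by -2.97 (limma, adjusted p = 1.62e-05) and -3.50 (adjusted p = 4.48e-05). Ddx3y was at 0 to 0.0169 FPKM in the 3 female libraries and 7.4 to 10.5 FPKM in the 3 male ones. Eif2s3y was listed at 0 in the female libraries and at 9.13 to 20 FPKM in the male ones.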

How the results depend on the processing

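The counts of 8427 genes differing between neurons and SGCs and of 6077 differing at least 2-fold became 5153 and 3418 with at least 1 FPKM required in all 14 libraries, where fewer genes were tested. Without ranking they were 8724 (6151 higher, 2573 lower) and 6560. Leaving out single libraries gave 8059 to 8416 and 5923 to 6132. Of 213 called named genes, 195 had the same direction and call under each of the 28 settings that gave them a value; the filter in all 14 libraries gave one for 155 of the 227 named genes, called or not. Without ranking, Ptbp2 (0.71), Slc2a1 (0.05), Stx4a (0.02), Fbxo6 (0.15) and Kcna6 (0.14) changed sign, the first alone passing the threshold there. For 14 against 3 day SGCs (1 gene), percentile ranks gave 4, normal scores 3, a pseudocount of 0.1 gave 3, the filter in all 14 libraries 0, length centring 0 and SGC libraries alone 3; leaving out single libraries gave 1 to 5, with 5 without 3 day library 3, 3 without 3 day library 1 or 4, and 2 without 14 day library 3 or 4 or neuron male library 3. For female against male neurons (2 genes), normal scores gave 6, a pseudocount of 0.1 gave 8, the filter in all 14 libraries 0, and leaving out male library 2 and female library 1 together 5; leaving out single libraries gave 2 to 14, with 14 without male library 2 and 4 without male library 3. The cause of these shifts was not tested. No paired analysis was possible for neurons against SGCs because the neuron columns carry no replicate number. With the replicate block, SGC libraries alone gave 1 gene between days, and the naive comparison 5187 genes against 5789 without it. Same-numbered libraries correlated at -0.067 to 0.132 between days and 0.003 to 0.186 in the naive groups, and 1 of 4 and 2 of 4 correlated best with their own number. With 4 libraries per group, these correlations cannot decide whether same-numbered libraries share more than a number. When single libraries were left out, the repeat contrast called 5430 to 6490 genes (6618 with all) and the naive comparison 3866 to 5825. On percentile ranks 28 pairs passed (25 and 3) in place of 31 (28 and 3). Depth is unknown for these values, so genes near 0 FPKM carry an error that could not be given. The choices of libraries to leave out together, of length centring and of SGC libraries alone were made after seeing the data.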
